A study of Homo sapiens with 6 samples.

Results

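Replication-dependent histone genes encode the bulk of the core histones H2A, H2B, H3 and H4 and the linker histone H1. Genes were taken whose current symbol begins H2AC, H2BC, H3C or H4C followed by a number, together with H1-1 to H1-6. Pseudogenes were left out, and a summed count of at least 10 over the 6 libraries was required. This gave 62 genes of the 26347 rows in the count table: 4 of H1, 16 of H2A, 17 of H2B, 12 of H3 and 13 of H4. The rule used the summed level, so the levels below are a description of genes chosen for being detected. Of the 69 coding genes with such symbols, 7 did not reach the minimum. H1-1, H2AC1, H2BC1, H3C6 and H4C7 held 0 counts, and H1-6 and H4C1 held 5 counts each over the 6 libraries. Just inside the minimum were H2AC25 with 16 counts, H3C1 with 35 and H3C10 with 46.

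The cells were THP-1, an established human monocytic leukaemia line that divides in culture, grown in RPMI medium with fetal bovine serum. All 6 libraries came from cells transfected with a synthetic microRNA mimic, with RNA taken 24 h later. The control group (3 libraries) received a negative control mimic, and the other group (3 libraries) received a miR-125a-5p mimic. Macrophages appear in the title of the study, while the labels describe monocytic cells and name no differentiation step. No label says that libraries came from separate cultures or days. A p-value here sets the difference of the groups only against the spread of libraries within them, and that spread may be technical.

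Histone genes of this kind are transcribed in S phase, when new chromatin is packed, from clusters of small genes without introns. Their messenger RNAs end in a conserved stem-loop rather than a poly(A) tail. SLBP binds the stem-loop, and the precursor is cut after it with the help of the U7 small nuclear ribonucleoprotein. The transcripts are degraded quickly when DNA synthesis stops. Some members also have longer, polyadenylated forms. Replacement histones such as H3.3 and H2A.Z come from ordinary polyadenylated transcripts made throughout the cell cycle.

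The stem-loop is the feature that sets these transcripts apart from others, so its forms are shown first. The search pattern read GG, 3 bases of any kind, TT, any base, T, any base, A, 3 bases of any kind and CC. It was searched on the transcript strand in the first 100 bases after the stop codon, using the 3′ UTRs that GENCODE 29 annotates (GRCh38). It was found in 30 of 33 members with such an annotation (90.9%) and in 54 of 18740 other genes (0.288%). The other 29 members had no annotated 3′ UTR of at least 20 bases and were not searched. The 30 stem-loops had 5 distinct sequences and began 22 to 67 bases after the stop codon. One member of each form follows, with the 16-base stem-loop in capitals.
H2AC18: caaaaGGCTCTTTTCAGAGCCaccca
H4C5: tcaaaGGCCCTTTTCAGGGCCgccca
H2BC4: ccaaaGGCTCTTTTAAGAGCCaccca
H4C14: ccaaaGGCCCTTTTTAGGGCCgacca
H2AC11: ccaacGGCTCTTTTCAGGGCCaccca
The form of H2AC18 was present in 17 members and that of H4C5 in 5, while those of H2BC4, H4C14 and H2AC11 were in 4, 3 and 1. On GRCh38 the stem-loop of H2AC18 lies at chr1:149842223-149842238 (minus strand), that of H4C5 at chr6:26205001-26205016 (plus) and that of H2BC4 at chr6:26123472-26123487 (minus). The H4C14 stem-loop is at chr1:149833032-149833047 (plus) and the H2AC11 stem-loop at chr6:27133515-27133530 (plus). In 22 of the 30 members an annotated transcript ran over 100 bases past the stem-loop.

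The transfected microRNA is shown beside them because its seed can be compared with the same transcripts. Its seed (bases 2 to 8) is in capitals. The 24 bases of the mature microRNA lie at chr19:51693268-51693291 (plus strand, GRCh38.p14, RefSeq).
miR-125a-5p: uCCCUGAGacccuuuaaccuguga
A full 8-base match, CTCAGGGA, was in 0 of the 62 histone genes' annotated transcripts. The 7-base match CTCAGGG was the best in the 3′ UTR of 3 members (H2BC18, H3C14 and H3C15) and in the coding sequence of 4 (H2AC6, H2AC7, H2AC16 and H2AC17). The 6-base core TCAGGG was the best 3′ UTR match in 7 members, and in 6 of these (H2AC11, H4C2, H4C5, H4C8, H4C11 and H4C16) it lay inside the stem-loop itself. It was the best match in the coding sequence of 4 members (H4C3, H4C13, H4C14 and H4C15) and also stood in the 5′ UTR of H4C15. Members without an annotated 3′ UTR could be searched only in the rest of the transcript. These matches describe letters in annotated transcripts and are not shown to be sites.

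Promoters of the histone genes were compared next, since neighbouring H2A and H2B genes are often divergently transcribed from one shared stretch. Windows from 250 bases before to 50 after the start (RefSeq, GRCh38.p14) were present for 58 members and searched on both strands. The octamer ATTTGCAT, the element bound by the POU factor OCT1 in H2B promoters, was in 13 of 17 H2B promoters (76.5%) and 10 of 15 H2A promoters (66.7%). It was in 1 of 10 H3, 0 of 4 H1 and 0 of 12 H4 promoters, against 1.80% of 27305 promoters overall. The 1 H3 promoter was that of H3C4. Its octamer has the same place, strand and distance from the start (-119) as that of H2AC7, so 1 stretch is counted in both classes. CCAAT was in 49 of the 58 members (84.5%, against 35.7% overall) and TATAAA in 37 (63.8%, against 11.95% overall). CCAAT was in 3 of 12 H4 promoters (25.0%) and in every H1, H2A, H2B and H3 promoter searched. The octamers of 5 H2B genes described below follow, with the octamer in capitals.
H2BC4: tttcatacctcATTTGCATagctctgccca
H2BC7: agaatcacctaATTTGCATaccacagggca
H2BC14: ttctactcctaATTTGCATaataacattta
H2BC18: tgcgagtcttcATTTGCATacgggctctat
H2BC21: tcggagccctaATTTGCATaaggtggttat
These windows are at chr6:26124031-26124060 (minus), chr6:26199394-26199423 (plus), chr6:27814963-27814992 (plus), chr1:149812401-149812430 (minus) and chr1:149886710-149886739 (minus). Of the 24 members with an octamer, 15 shared it with a neighbour, at 7 places. The same octamer stood in the windows of H2BC4 and H2AC6, of H2BC14 and H2AC14, of H2BC21 and H2AC20, and of H2BC7, H2AC7 and H3C4.

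Depth ran from 8256149 to 10257791 counts per library. Levels are given as CPM, which is the count divided by the library's total times edgeR's TMM factor, multiplied by 1000000. In a principal component analysis of all tested genes (log2 CPM), control library 1 stood apart on component 1, at -41.6 against 1.02 to 19.6 for the others. Monocytic markers were present: 10 of 10 had counts, with summed levels of 2460 to 2619 CPM in controls and 2437 to 2554 CPM after miR-125a-5p. Markers of T cells summed to 0 to 0.662 CPM, of fibroblasts to 0.772 to 1.55 CPM, and of epithelium to 0 to 1.08 CPM, and erythroid markers held no counts. The 4 B cell markers summed to 53.0 to 86.2 CPM in controls and 44.6 to 62.1 CPM after miR-125a-5p, nearly all from the transcription factor PAX5, while MS4A1 and CD79A were near 0. The row of the microRNA's own gene, MIR125A, held 1 count over the 6 libraries. The mimic was added as a synthetic RNA, so that row is no check of the labels.

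Reads of histone genes are hard to assign, because copies are nearly identical. The pairs H2AC18 and H2AC19, H4C14 and H4C15, and H3C14 and H3C15 had the same count in every library: 14417, 888 and 451 counts in sum. All 3 pairs lie on chromosome 1, and every 50-base stretch of the coding sequence of each copy was found in another member. The 2 rows of such a pair hold 1 measurement, and sums below count it once. Every such stretch of H4C11 and of H4C12 was likewise in another member, and these had 55 and 56 counts. In 27 of 62 members no 50-base stretch of the coding sequence was in another member, and the median over all members was 2.37%. For H1 genes this share was 0% in all 4, and for H2B genes the median was 13.4%. H2AC13 (83.0%) and H2AC14 (84.5%) stood high, so a read from most of their coding sequence cannot be told apart from one of another member.

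Histone transcripts were a small part of these libraries. With each identical pair counted once, they took between 0.124% of counts (miR-125a-5p library 1, 95% Wilson interval 0.121% to 0.126%) and 0.153% (miR-125a-5p library 2, 0.150% to 0.155%). These intervals cover counting error only. Whether RNA was selected by its poly(A) tail is not given in the sources used here, and such selection would hold back tail-less transcripts. Of 19 other RNAs without a poly(A) tail that were listed, 8 had counts. Of these, 5 were tested and 0 passed, with 3 positive; the smallest p was that of RPPH1 (log2 fold change -0.34, edgeR adjusted p = 0.668). RPPH1, the RNA of ribonuclease P, had 54.8 ± 7.64 CPM in controls and 43.4 ± 3.56 CPM after miR-125a-5p (SD, n = 3 each). RMRP, the RNA of the related mitochondrial processing enzyme, had 29.5 to 32.4 CPM over the 6 libraries.

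H2A transcripts made up the largest summed level of the 5 classes in every library. The H2A sum was 545, 535 and 492 CPM in control libraries 1, 2 and 3, and 475, 611 and 569 CPM in miR-125a-5p libraries 1, 2 and 3. The H2B sum was 400, 391 and 383 CPM in controls and 374, 423 and 427 CPM after miR-125a-5p. For both classes, miR-125a-5p library 1 lay below every control and libraries 2 and 3 above every control, so the groups overlapped.

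H1 transcripts summed to 155, 182 and 175 CPM in controls and 166, 222 and 179 CPM after miR-125a-5p. H4 transcripts summed to 154, 142 and 124 CPM in controls and 126, 153 and 160 CPM after miR-125a-5p. H3 transcripts were the lowest sum in every library, with 109, 120 and 106 CPM in controls and 97.4, 142 and 115 CPM after miR-125a-5p. No class separated the groups.

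**Figure D1:**
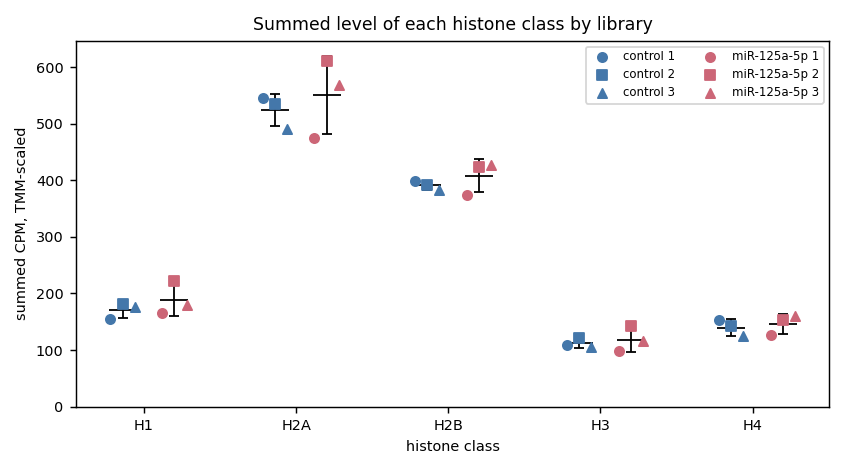
Summed TMM-scaled CPM (vertical axis) of the members of each histone class (horizontal axis), with each identical pair counted once. Points are single libraries, blue for the control mimic and red for miR-125a-5p, and bars are the mean and SD of 3 libraries; the groups overlap in all 5 classes, and in H2A the miR-125a-5p libraries run from 475 to 611 CPM.

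All members together, pairs counted once, summed to 1338 ± 50.2 CPM in controls and 1413 ± 160 CPM after miR-125a-5p (SD, n = 3 each), a log2 ratio of 0.08. The SD after miR-125a-5p exceeds the difference of the means. In bulk RNA, a different share of cells in S phase and a different amount of histone RNA per cell cannot be told apart. Without miR-125a-5p library 2 the log2 ratio was 0.0074, and without library 1 it was 0.17.

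The spread lay between miR-125a-5p libraries and was seen in many members at once. It was examined in the 39 members with a summed count of at least 300, pairs counted once. Set against each gene's own mean over the 6 libraries, the median member stood at -0.19 (log2) in miR-125a-5p library 1, and at 0.13 and 0.14 in libraries 2 and 3. In controls 1, 2 and 3 the median was -0.0063, -0.0065 and -0.11.

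Counted by gene, 34 of 39 members (87.2%) were higher in miR-125a-5p library 2 than in library 1, by a median of 0.30 (log2), and 31 of 39 (79.5%) were higher in library 3 than in library 1. Library 3 was above library 2 for 19 of 39. Among controls, library 2 was above library 1 for 19 of 39, library 3 above library 1 for 16 and library 3 above library 2 for 13 (33.3%). Of 11294 other genes with at least 300 counts in sum, the share higher in the first of each such pair was 49.6% to 51.1%, but TMM scaling centres the bulk of genes, so a share near 50% there is set by the scaling.

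The classes did not move alike. In miR-125a-5p libraries 1, 2 and 3 the class medians were -0.30, 0.12 and 0.25 for H2A (11 members) and -0.09, 0.08 and 0.17 for H2B (13 members). For H1 (4 members) they were -0.13, 0.36 and 0.0048, and for H3 (5 members) -0.22, 0.33 and -0.08. H4 (6 members) stood at -0.05, -0.0039 and 0.14. Library 3 was thus low or near 0 for H3 and H1, and library 2 near 0 for H4. Some members have stretches of coding sequence in common, so their counts may not be independent. The 27 listed genes of S phase and DNA replication had library medians of -0.026, 0.064 and 0.033 in miR-125a-5p libraries 1, 2 and 3, and -0.049, -0.028 and 0.068 in the controls. The part of cell-cycle differences or RNA selection in the histone shift was not tested.

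**Figure D2:**
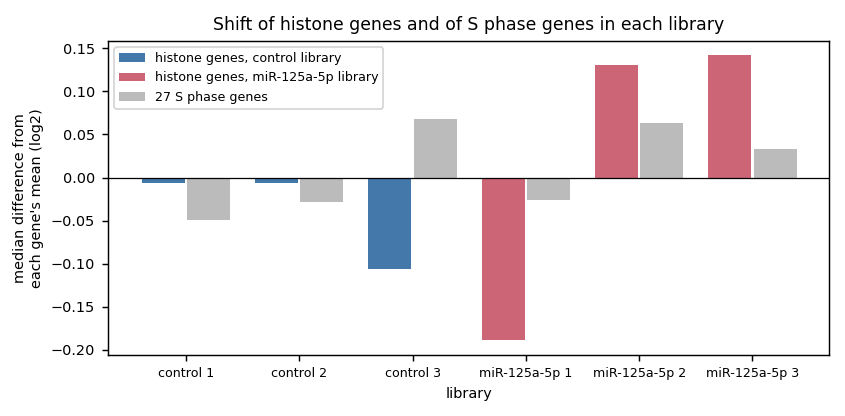
Median difference of genes from their own mean over the 6 libraries (log2, vertical axis) in each library, for 39 histone genes (blue for control, red for miR-125a-5p libraries) and for 27 genes of S phase and DNA replication (grey). Histone genes stand at -0.19 in miR-125a-5p library 1 and at 0.13 and 0.14 in libraries 2 and 3, and the S phase genes run from -0.049 to 0.068 over the 6 libraries.

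The main comparison asked whether histone transcripts differed after the miR-125a-5p mimic. They did not pass the test in either direction. Of the 62 members, 57 passed the filter on low counts and were tested; H2AC25, H3C1, H3C10, H4C11 and H4C12, with 16 to 56 counts in sum, were not. With edgeR's quasi-likelihood test, Benjamini-Hochberg adjusted across all 14731 tested genes, 0 members were higher and 0 lower, where 0.0% of all tested genes were called higher and 0.0272% lower. DESeq2, limma voom and edgeR's likelihood ratio test also called 0 members. At an unadjusted p under 0.05 there were 2 members higher (H1-5 and H2BC14) and 0 lower, against 2.69% and 3.22% of all tested genes. In either direction, that count was 8 of 60 tested members without miR-125a-5p library 1 and 4 of 60 without control library 1. It was 1 of 58 without control library 3 and 0 of 59 without miR-125a-5p library 2. The share of all genes in these fits was not computed, so the counts cannot be judged against it. A positive fold change was seen in 39 of 57 members, against 50.2% of all genes, and the median log2 fold change was 0.06 against 0.0011. With each identical pair counted once these were 37 of 54 and 0.05. The median over all 57 was -0.02 without miR-125a-5p library 2.

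A result that misses the threshold does not show equal levels, so the intervals matter. The 95% interval of the log2 fold change lay within 1 of 0, that is, inside a doubling or halving, in 44 of the 57 members. With each identical pair counted once this was 41 of 54, and the share of all tested genes was 81.9%. An interval within 1 of 0 was thus common but not general. This held for all 13 members with at least 2000 counts in sum, whose standard errors (SE) were 0.10 to 0.15, and for all 18 with 500 to 2000. Of the 26 members under 500 counts it held for 13, with SE from 0.22 to 0.71. The interval depends on the estimate as well as on its error: that of H2BC14, one of the other 13, lies above 0 and reaches past 1.

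**Figure D3:**
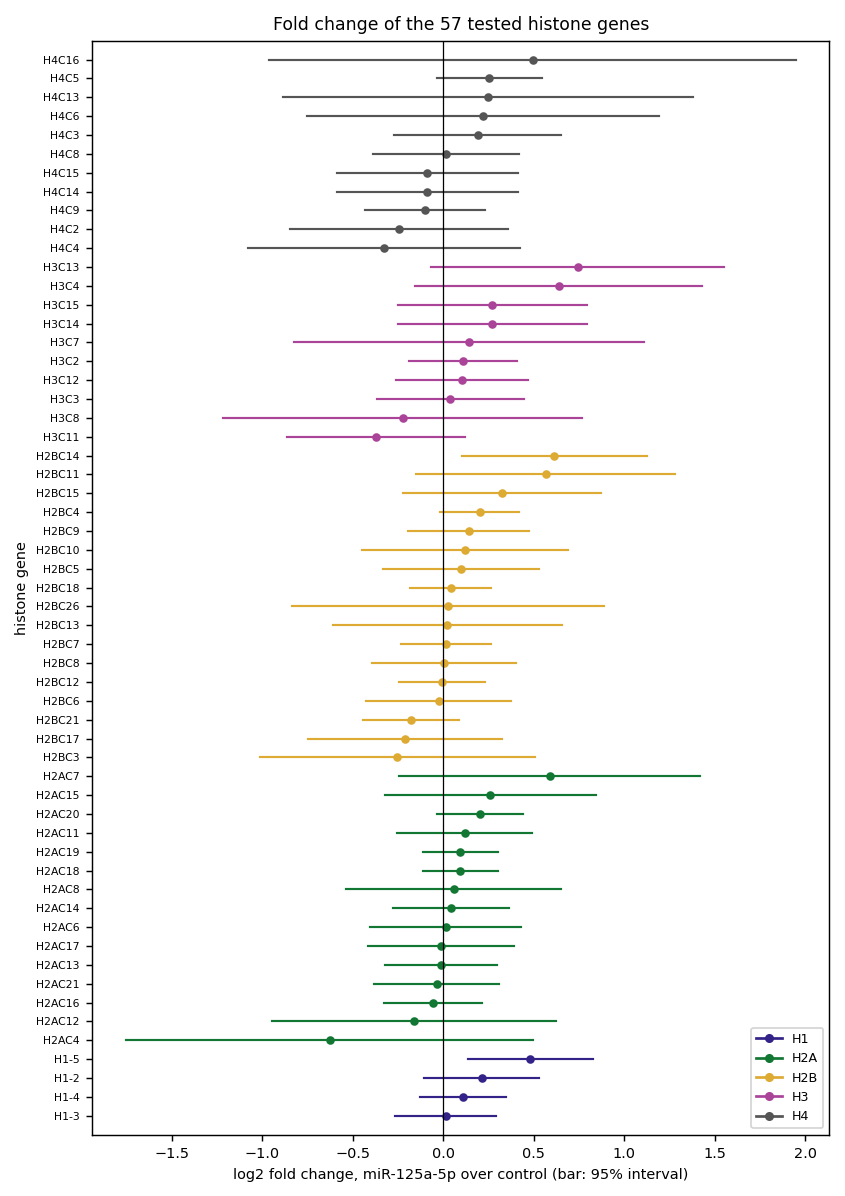
Log2 fold change of miR-125a-5p over control libraries (horizontal axis) with its 95% interval (bars) for the 57 tested histone genes (vertical axis), coloured by class. The intervals of H1-5 and H2BC14 lie above 0 before adjustment, 44 of 57 lie within 1 of 0, and no member passed after adjustment.

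Among H2A genes, H2AC18 and H2AC19, identical copies that encode the same H2A, had the highest level. Their shared row held 272, 267 and 237 CPM in control libraries 1, 2 and 3 and 250, 319 and 259 CPM in miR-125a-5p libraries 1, 2 and 3. The groups overlapped, and the log2 fold change was 0.09 (SE 0.10, 95% interval -0.11 to 0.30, edgeR adjusted p = 0.940). H2AC20, from the same region of chromosome 1, had 58.2, 61.2 and 56.8 CPM in controls and 58.8, 69.3 and 74.8 CPM after miR-125a-5p. Its libraries 2 and 3 were above every control and library 1 was among them (log2 fold change 0.20, interval -0.03 to 0.44, edgeR adjusted p = 0.864).

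H2AC16, an H2A gene of the chromosome 6 cluster with a 7-base seed match in its coding sequence, had 67.7, 54.4 and 47.2 CPM in controls and 47.7, 58.8 and 56.1 CPM after miR-125a-5p. Control library 1 was its highest, and without that library its log2 fold change turned from -0.06 to 0.09. H2AC4 was the H2A gene with the lowest fold change, on few counts: 1.47, 1.65 and 1.32 CPM in controls and 0.70, 1.30 and 0.84 CPM after miR-125a-5p. It was the 1 tested member lower in every miR-125a-5p library than in every control, against 5.9% of all genes. Its log2 fold change was -0.63 with an interval from -1.75 to 0.50 (edgeR adjusted p = 0.919).

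Among H2B genes, H2BC4 had the highest level, at 76.3, 66.3 and 70.0 CPM in controls and 76.9, 84.4 and 83.1 CPM after miR-125a-5p. The groups did not overlap, though control library 1 and miR-125a-5p library 1 nearly met. The log2 fold change was 0.20 (SE 0.11, interval -0.02 to 0.42, edgeR adjusted p = 0.859). H2BC18 held 64.6, 72.6 and 72.8 CPM in controls and 66.6, 77.6 and 71.6 CPM after miR-125a-5p, with overlap and a log2 fold change of 0.04 (interval -0.18 to 0.27). H2BC18 carries a 7-base seed match in its 3′ UTR, and its interval bounds any fall at 0.18 on the log2 scale before adjustment. Its value was -0.02 with control library 1 left out, and also with miR-125a-5p library 2 left out.

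H2BC7 stood at 64.1, 55.1 and 57.3 CPM in controls and 50.4, 61.8 and 66.4 CPM after miR-125a-5p, and its log2 fold change of 0.02 ran from -0.07 to 0.12 with 1 library left out. H2BC14 (NCBI gene 8342) had the next smallest p: 6.56, 7.21 and 4.74 CPM in controls against 8.91, 10.5 and 8.85 CPM after miR-125a-5p. Every miR-125a-5p library was above every control. Its log2 fold change was 0.61 (SE 0.25, interval 0.10 to 1.12, edgeR adjusted p = 0.739), on 418 counts in all. H2BC21, one of the genes listed as having polyadenylated forms, had 40.7, 39.5 and 37.2 CPM in controls and 37.9, 32.2 and 33.6 CPM after miR-125a-5p. Its groups overlapped at library 1, and its log2 fold change was -0.18 (interval -0.44 to 0.09, edgeR adjusted p = 0.898).

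**Figure D4:**
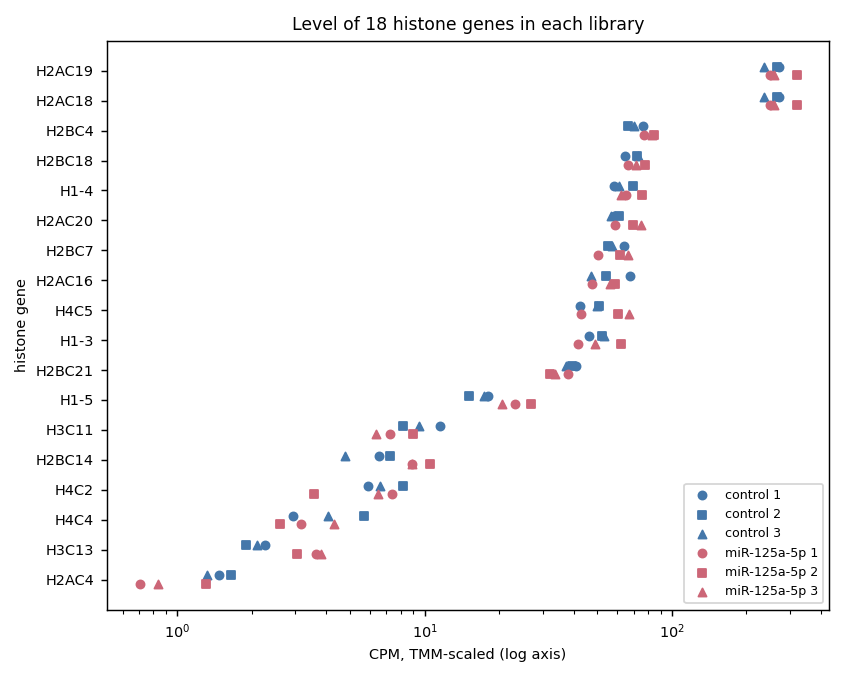
TMM-scaled CPM (log axis) of 18 histone genes in each library: the 10 with the highest mean level and the 5 with the smallest p in each direction. Blue is control and red miR-125a-5p, with marker shapes for the replicate. H1-5, H2BC4, H2BC14 and H3C13 have every red point to the right of every blue one, and H2AC4 has every red point to the left. H2AC18 and H2AC19 coincide because their counts are identical.

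Linker histones bind DNA between nucleosomes, and 4 of their genes were measured. H1-5 (NCBI gene 3009) had the smallest p of all members: 18.02, 15.1 and 17.3 CPM in controls and 23.1, 26.8 and 20.6 CPM after miR-125a-5p. All 3 miR-125a-5p libraries were above all 3 controls. The log2 fold change was 0.48 (SE 0.17, interval 0.14 to 0.82), but the edgeR adjusted p was 0.621, and between 0.435 and 0.992 over the alternatives. With 1 library left out the fold change was 0.37 to 0.56.

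H1-4 had the highest level of the H1 genes, at 58.4, 69.5 and 60.9 CPM in controls and 65.2, 76.0 and 62.0 CPM after miR-125a-5p (log2 fold change 0.11, interval -0.13 to 0.35). H1-3 stood at 46.2, 52.2 and 53.3 CPM in controls and 41.6, 62.4 and 48.8 CPM after miR-125a-5p. Its lowest and highest values both fell in the miR-125a-5p group, and its log2 fold change was 0.01 (interval -0.26 to 0.29). H1-2, the fourth gene, had a log2 fold change of 0.21 (interval -0.11 to 0.53). All 4 were positive, and none passed.

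Fold changes were positive for 8 of the 10 H3 genes tested (median log2 fold change 0.13). Both H3C14 and H3C15, which hold 1 measurement (0.27), are counted among the 8. H3C13, an H3 gene of chromosome 1, had 2.25, 1.89 and 2.10 CPM in controls and 3.63, 3.04 and 3.83 CPM after miR-125a-5p. The groups did not overlap, but the counts were 16 to 32 per library, and the log2 fold change of 0.74 had an interval from -0.07 to 1.55 (edgeR adjusted p = 0.859). H3C11, in the chromosome 6 cluster, had 11.6, 8.15 and 9.48 CPM in controls and 7.27, 9.01 and 6.34 CPM after miR-125a-5p, with overlap (log2 fold change -0.37, interval -0.86 to 0.12, edgeR adjusted p = 0.884). Together with H1-5, H2BC4, H2BC14 and H2BC15, H3C13 made 5 members with every miR-125a-5p library above every control, against 5.31% of all genes.

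H4 genes all encode the same or nearly the same small protein. H4C5 had the highest level, at 42.3, 50.6 and 49.8 CPM in controls and 42.8, 60.4 and 66.8 CPM after miR-125a-5p. Library 1 was again with the controls and libraries 2 and 3 above them (log2 fold change 0.25, SE 0.14, interval -0.03 to 0.54, edgeR adjusted p = 0.864). H4C2 had 5.88, 8.15 and 6.62 CPM in controls and 7.39, 3.58 and 6.46 CPM after miR-125a-5p, and its log2 fold change of -0.25 was 0.01 without miR-125a-5p library 2. H4C4 had 2.94, 5.67 and 4.08 CPM in controls and 3.17, 2.60 and 4.30 CPM after miR-125a-5p, with full overlap (log2 fold change -0.33). H4C14 and H4C15 shared 26.4, 13.2 and 10.4 CPM in controls, where control library 1 stood above every other library, and 14.9, 15.3 and 17.2 CPM after miR-125a-5p.

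Set beside the seed matches shown above, 17 tested members with any match of 6 bases or more had a median log2 fold change of 0.04, with 5 negative. The 40 tested members in which none was found, some of them without an annotated 3′ UTR to search, had a median of 0.08, with 13 negative. The 5 tested members whose stem-loop holds the 6-base core ran from -0.25 (H4C2) to 0.49 (H4C16, SE 0.71). Among the 7 with a 7-base match, fold changes lay between -0.06 and 0.59, the last for H2AC7 at 171 counts in sum. Its counts in the 6 libraries (30, 15, 26, 19, 41 and 40) were close to those of H3C4 (32, 18, 28, 20, 48 and 46). H3C4 has the same annotated start, so the 2 rows may not be separate measurements. Both copies of identical pairs are counted in these sets, though each pair holds 1 measurement. H4C14 and H4C15 (-0.09 each) are both among the 5 negative, and H3C14 and H3C15 (0.27 each) are both among the 7. H2AC18 and H2AC19 are both among the 40. These are descriptions of few genes that share sequence.

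Neighbours with 1 octamer between them did not always have like fold changes, but their intervals overlapped. H2BC21 and H2AC20 had -0.18 (interval -0.44 to 0.09) and 0.20 (-0.03 to 0.44). H2BC14 and H2AC14 had 0.61 (0.10 to 1.12) and 0.04 (-0.28 to 0.36), and H2BC4 and H2AC6 had 0.20 (-0.02 to 0.42) and 0.01 (-0.40 to 0.43). The differences between neighbours were not tested. Levels within a pair differed more: H2BC4 had a mean of 76.2 CPM over the 6 libraries and H2AC6 14.4 CPM.

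Per annotated length, the highest value among the histone genes compared was that of H2AC18, whose counts are also those of H2AC19. CPM per kilobase of annotated exon (GENCODE 29) were computed for the 30 members with a stem-loop found and for 12 replacement or variant histone genes. H2AC18 had 487 CPM per kilobase (431 to 581 over the libraries), above H2AZ1, which encodes H2A.Z, at 225 (209 to 251) and H3-3A, which encodes H3.3, at 224 (192 to 249). How reads were divided between H2AC18 and its identical copy is not known, so this value may hold the reads of both. Its rank above H2AZ1 and H3-3A may depend on that. The median was 9.95 CPM per kilobase for the 30 members and 25.5 for the 12 others. Annotated lengths include long forms that may not be made here, and this lowers the values of genes that have them.

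Of the 12 replacement and variant genes, 11 were tested and 0 passed, 6 with a positive fold change. CENPA, the histone H3 variant of centromeres, had the smallest p there, at 17.5 ± 3.15 and 23.5 ± 4.23 CPM (control and miR-125a-5p, SD, n = 3 each; log2 fold change 0.42, edgeR adjusted p = 0.787). The 6 histone genes listed as having polyadenylated forms had a median log2 fold change of 0.05, with 4 positive.

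Genes that act in making and removing histone messenger RNA were taken from 2 lists, in which the U7 RNA gene RNU7-1 alone had no counts. Of 25 genes of transcription and processing, 0 passed and 14 were positive (median 0.02). CPSF3, the endonuclease that cuts histone precursors, had 180 ± 3.35 and 209 ± 5.77 CPM (log2 fold change 0.22, edgeR adjusted p = 0.746). ZNF473, a zinc-finger protein of the U7 complex, had 49.5 ± 7.16 and 40.6 ± 1.81 CPM (-0.29, edgeR adjusted p = 0.799). Of 17 decay genes, 0 passed and 8 were positive; XRN1, the 5′ exonuclease, had 454 ± 25.0 and 403 ± 57.2 CPM, and LSM2, of the ring that binds shortened RNA ends, had 42.5 ± 8.51 and 35.9 ± 4.65 CPM.

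Of 17 histone chaperone genes 0 passed and 9 were positive. SUPT16H, a subunit of the FACT complex, had the smallest p there, at 204 ± 8.10 and 255 ± 15.2 CPM (log2 fold change 0.32, edgeR adjusted p = 0.437), and ASF1B, which hands H3 and H4 to other chaperones, had 34.3 ± 4.12 and 29.2 ± 3.54 CPM. Of the 27 S phase genes 0 passed and 16 were positive (median 0.03). FEN1, the flap endonuclease, had 110 ± 6.12 and 83.1 ± 6.14 CPM (log2 fold change -0.40, edgeR adjusted p = 0.373), and RRM2, a subunit of ribonucleotide reductase, 348 ± 29.5 and 428 ± 22.2 CPM (0.30, edgeR adjusted p = 0.501).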

How the data were processed

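RNA taken up in Trizol from THP-1 cells gave 6 Illumina libraries. What the authors deposited is a single matrix of unnormalized read counts by NCBI gene. The submitters' processing notes list bcl2fastq, TopHat, edgeR and the build hg19, with no versions. The sources used here do not name the counting tool, the annotation, the strand setting or the treatment of reads matching more than 1 gene. Columns were matched to libraries by the names in the labels, and 0 belonged to none. Identifiers matched RefSeq genes (GRCh38.p14, names only) for 26204 rows (99.5%). The fit used edgeR 4.0.16 (R 4.3.3) with filterByExpr, TMM, glmQLFit and glmQLFTest, no covariate, and a threshold of 0.05 after Benjamini-Hochberg adjustment; it was tested on simulated data. The SE is the size of the log2 fold change over the square root of F, and 95% intervals use its t quantile, per gene and unadjusted. Alternatives were other normalizations, filters and tests (DESeq2 1.42.0, limma 3.58.1), each library left out, and the replicate block. Counting identical pairs once was added after seeing the data. Values in every library are given for the 10 members with the highest mean CPM and the 5 with the smallest p in each direction. For each list the 2 genes with the smallest p are named, since none was called. One gene that this rule names is not reported here. H2BC15, H4C14, H4C15, H1-2, H2AC6, H2AC7, H2AC11, H2AC14, H4C16, PAX5, RMRP, H2AZ1 and H3-3A lie outside this rule and were named after their values were seen. Members and lists were chosen with earlier results of these data known. Stem-loops and seed matches come from GENCODE 29 transcripts on GRCh38, another build than that of the counts.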

Additional observations from a re-analysis of the deposited data

How the results depend on the processing

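The count of histone genes called was 0 higher and 0 lower under every alternative run: RLE and total-count normalization, 2 other count filters, DESeq2, edgeR's likelihood ratio test, limma voom, the replicate block and each library left out. Over all genes, DESeq2 called 2 higher and 11 lower, the likelihood ratio test 4 higher and 17 lower, and with 1 library left out 0 to 2 were higher and 3 to 14 lower. The replicate block gave 9 lower genes over all. Same-numbered libraries of both groups had correlations of their deviations of 0.051, 0.0091 and -0.016, so the numbers were not taken to pair them. The median log2 fold change of the histone genes was 0.08 under the replicate block and ran from -0.02 to 0.15 with 1 library left out, and their summed log2 ratio, here over all 62 rows with both copies of identical pairs, from 0.0018 to 0.16. Both extremes came from leaving out miR-125a-5p library 2 or 1. Several fold changes near 0 changed sign, and so did that of H4C2, which was -0.25 in the main fit. That of H1-3 was -0.0046 under the replicate block and -0.163 to 0.136 with 1 library left out. Over the same fits the range was -0.173 to 0.0923 for H2AC16, -0.0247 to 0.159 for H2AC18 and H2AC19, -0.0194 to 0.091 for H2BC18, -0.0705 to 0.1207 for H2BC7 and -0.459 to 0.0107 for H4C2. The cause was not tested. Standard errors were largest for genes under 500 counts in sum.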
